A study of Macaca fascicularis with 6 samples.

Results

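The cytosolic ribosomal protein genes were examined in the left ventricle of cynomolgus monkeys with and without chronic atrioventricular block. The members were 152 probe sets of 71 genes, taken from 52706 probe sets and 21505 named genes on the array by the gene name that the array's design gives to each probe set. A name had to be RPL or RPS followed by digits and at most 1 letter A, L or X, or RPLP0, RPLP1, RPLP2 or RPSA. These names gave 102 probe sets of 43 genes of the large subunit and 50 probe sets of 28 genes of the small subunit. The names were given by design name except for 1 probe set, which had only an annotation symbol. No probe set carried the name RPL3 or RPSA alone, so neither gene was analysed here.

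The ribosome translates mRNA into protein and is built from a small subunit, which reads the mRNA, and a large subunit, which joins the amino acids. Each subunit is a scaffold of ribosomal RNA dressed with ribosomal proteins, mostly in single copy, and the genes are expressed together at high levels in every cell. Their mRNAs begin with a pyrimidine tract through which the kinase mTORC1 controls how well they are translated, a step that an mRNA measurement does not see. Mammalian genomes also hold many processed pseudogenes of these genes, whose sequences resemble the mRNAs, and an array probe set can therefore match several places in the genome.

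All hearts were from male animals aged 4 to 6 years, killed under thiopental anesthesia, with 1 array per animal. The intact group held 4 animals that had not been operated on (animals 11, 12, 13 and 14), and the block group held 2 animals (animals 2 and 8) taken 8 months after ablation of the atrioventricular node. Animals 2 and 8 had, besides the block, received dl-sotalol by mouth repeatedly and moxifloxacin, and had developed torsade de pointes, for whose frequency they were selected. The block, the drugs and the arrhythmia cannot be told apart in these samples, and no untreated animal with block or treated animal without it was measured. The specimens were full-thickness pieces of the left ventricular free wall with every cell type of the wall in them, so that fewer cells of a type and less RNA per cell cannot be told apart.

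The deposited signals were not on a common level, with 2% trimmed means of 75.1 to 88.2 on the intact arrays and of 54.6 and 73.5 on the arrays of animals 2 and 8. Each array was therefore multiplied to a common trimmed mean, and every signal below is on that scale (MAS5 fluorescence intensity in arbitrary units, linear). MAS5 also calls each probe set Present, Marginal or Absent on an array, and 36.0% to 39.7% of probe sets were Present on an array. The ratio of the 3′ to the 5′ control probe set of GAPDH, which grows as the copied RNA gets shorter, was 2.17 to 2.65 in the intact hearts, 5.05 in animal 2 and 3.05 in animal 8 (log2 difference 0.76, 2-sided exact permutation test, p = 0.0667, below which 4 against 2 arrays cannot go). The same ratio of ACTB differed by 0.21 on the log2 scale (exact permutation test, 2-sided p = 0.333). Of the cardiomyocyte markers, 14 of 14 tested were Present on every array, which marks cardiac muscle but not the chamber. The signal of MYL2, the ventricular regulatory light chain, was 13905 to 16331 in the intact hearts, 20043 in animal 2 and 15648 in animal 8.

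The ribosomal protein probe sets differed widely in detection. Present calls on all 6 arrays were made for 87 probe sets of 62 genes, which is 57.2% of the members against 28.7% of all probe sets. The intact means of these 87 ran from 17.0 to 11719, and 68 were over 1000. On the other side 36 probe sets were Present on no array, with intact means of 1.37 to 60.8 and a median of 8.39. Another 14 were Present on 1 array, and the rest lay in between. In 21 of the 26 genes that had a probe set without any Present call, another probe set of the same gene was Present on all arrays, so the silent ones say little about the gene. Among the 87 probe sets, 67 (77.0%) aligned to more than 1 place of the rhesus genome (build Mmul_051212 of the array's annotation), against 8.70% of all probe sets Present on every array, and the median number of places was 5 with a maximum of 20. Of the 36 probe sets without a Present call, 1 aligned to more than 1 place. The suffix _s_at, given to probe sets whose probes match several transcripts of a family, was carried by 33 members and all 33 were Present on every array, against 53.3% of the array's _s_at probe sets. Signals of a gene and of its near-identical copies cannot be told apart in these probe sets.

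The genes without any tested probe set included RPL10L, RPL28, RPS2 and RPS27. RPL10L is an intronless copy of RPL10 known for its use in testis, and its 1 probe set had an intact mean of 33.7. The other 3 encode standard subunit proteins, whose probe sets read at intact means of at most 5.71 and were Present on 0 arrays. Their levels are not known from this array.

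Testing was done on the 22577 probe sets that were Present on at least 2 of the 6 arrays, among them 102 ribosomal protein probe sets of 66 genes (67 of the large and 35 of the small subunit). No ribosomal protein probe set passed an adjusted p of 0.05 in limma in either direction, where over all probe sets tested 1 was higher with block (0.00443%) and 4 were lower (0.0177%). The lowest adjusted p of a member was 0.351. At an unadjusted p under 0.05, 0 of the 102 were higher, against 3.62% of all probe sets, and 5 (4.90%) were lower, against 4.62%. In data simulated on these arrays the same test recovered 0% of probe sets changed 2-fold, 63.5% of those changed 4-fold and 81.5% of those changed 8-fold, so that a change in a single member of the size seen in most of them could not have been called.

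The members Present on all arrays lay close to no difference. The median log2 difference, block minus intact, was 0.03 with quartiles of -0.11 and 0.17, against -0.01 with quartiles of -0.20 and 0.20 over all probe sets Present on all arrays. Of the 87, 46 were higher and 41 lower with block. The estimate was within 1.2-fold for 71 of them (81.6%, against 62.0% of all probe sets Present on every array) and beyond 1.5-fold for 2 (2.30%, against 9.12%). The 95% interval stayed inside a 2-fold change in either direction for 77 (88.5%, against 75.4%). Most members Present on all arrays are bright, and bright probe sets scatter less. Among the 1380 probe sets Present on all arrays with an intact mean over 1000, of which 68 were members, the median SD of log2 signals over the intact hearts was 0.18, and it was 0.17 over the 68. In that brighter set 60 of the 68 members (88.2%) and 68.5% of all probe sets were within 1.2-fold. By subunit, the median log2 difference over tested probe sets was -0.01 for the large and 0.08 for the small subunit. For all 102 tested members it was 0.03 (-0.04 with quantile normalization), and it was -0.00 over all tested probe sets.

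**Figure D1:**
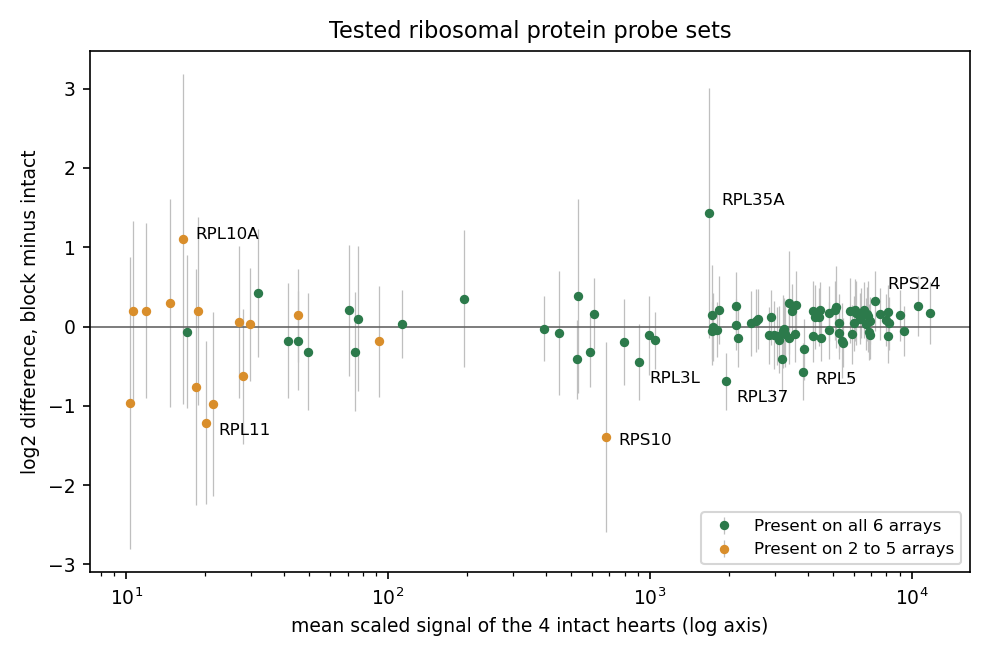
The log2 difference (block minus intact) of each of the 102 tested ribosomal protein probe sets is plotted against its mean scaled signal in the 4 intact hearts on a log axis, with 95% limma intervals as bars and detection on the 6 arrays as colour. Of the 68 probe sets above a signal of 1000, 60 lie within 1.2-fold of no difference. The furthest from it are an RPL35A probe set at 1.43 and those of RPL37 at -0.69 and RPL5 at -0.57.

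The members tended to order the hearts alike. Among the members Present on all arrays, the median log2 signal relative to the intact mean was 0.12 in animal 11, -0.13 in animal 12, 0.11 in animal 13 and -0.07 in animal 14, and it was 0.01 in animal 2 and 0.04 in animal 8. By this scaling both hearts with block lay inside the range of the intact hearts, which they did not by every scaling. The same medians over all 15151 probe sets Present on every array were between -0.02 and 0.02 in all 6 hearts. Over the brighter set of 1380 probe sets they were 0.07, -0.05, 0.03 and -0.04 in animals 11 to 14. They were 0.08 in animal 2 and -0.00 in animal 8. Over the 68 members of that set they were 0.12, -0.13, 0.12 and -0.08, then 0.02 and 0.05. Each intact heart thus lay on the same side in the brighter set as in its members, but nearer the intact mean. Animal 13 was the highest intact heart in 41 of the 87 members (47.1%, against 24.6% of all probe sets Present on every array) and animal 11 in 31 (35.6%, against 26.7%). Animal 12 was the lowest in 45 (51.7%, against 23.1%). These shares were not taken over the bright probe sets alone. Both the spread of the intact hearts and the place of the hearts with block depended on the scaling. The medians of the brighter set lay between -0.01 and 0.02 in the intact hearts with quantile normalization. With quantile normalization the members' medians were 0.03, -0.08, 0.10 and -0.03 in animals 11 to 14, -0.11 in animal 2 and -0.00 in animal 8, so that animal 2 was below every intact heart. In the deposited signals without scaling they were -0.00, -0.04, 0.04 and 0.04 in the intact hearts, -0.58 in animal 2 and -0.12 in animal 8, both below every intact heart, while the medians of all probe sets were then -0.11, 0.10, -0.07 and 0.09, then -0.59 and -0.15. With 75th percentile scaling, and with scaling to the median of the probe sets Present on all arrays, both hearts with block lay inside the intact range. Animal 12 was the lowest of the intact hearts under each of these. The signals of the brightest tested probe set of each gene, added over 66 genes, came to between 247362 and 293536 in the intact hearts, 288601 in animal 2 and 277469 in animal 8.

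**Figure D2:**
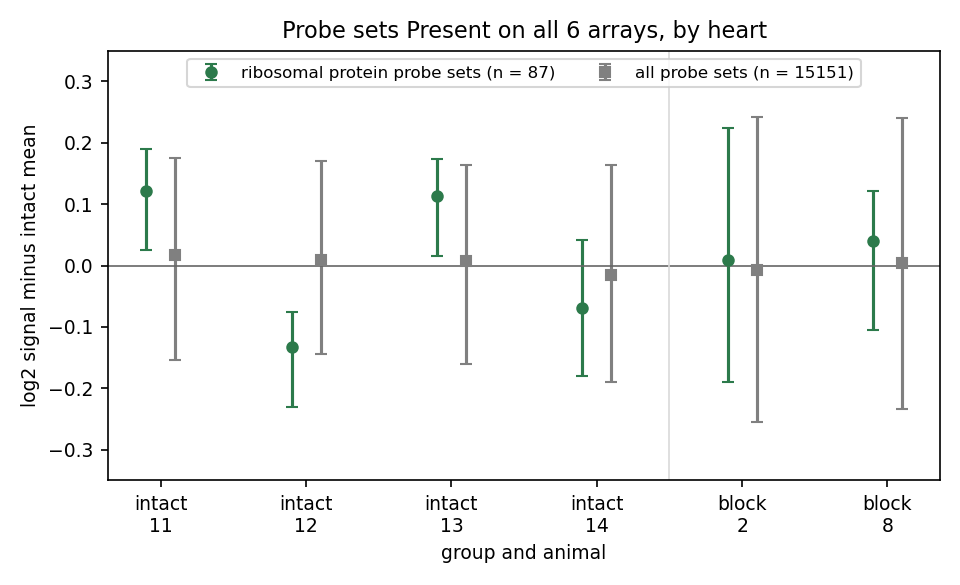
The median (symbols) and quartiles (bars) of the log2 signal relative to the mean of the 4 intact hearts are shown for each heart, for the 87 ribosomal protein probe sets and for all 15151 probe sets Present on all 6 arrays. The ribosomal protein medians run from -0.13 in intact animal 12 to 0.12 in intact animal 11, and animals 2 and 8 with block lie between them.

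RPL35A, a protein of the large subunit whose human gene is among those mutated in Diamond-Blackfan anemia, was the member that the study itself singled out. The study listed it at 2.70 times the intact level, which is also the fold of MmugDNA.42687.1.S1_at here. RPL35A had 4 probe sets, and they did not give the same answer. In MmugDNA.42687.1.S1_at the signal was 2139, 1545, 1265 and 1761 in intact animals 11, 12, 13 and 14, 13599 in animal 2 and 1454 in animal 8. Animal 2 alone was high, and animal 8 lay within the intact range. In animal 2 the signal was 8.26 times the intact mean and 6.36 times the highest intact heart, and in animal 8 it was 0.88 times the intact mean. The log2 difference between groups was 1.43 ± 0.70 (SE), with a 95% interval from -0.14 to 3.01 and a limma adjusted p of 0.640. With animal 8 left out, which leaves 1 heart with block that is assumed to vary like the intact ones, the log2 difference was 3.05 at an adjusted p of 0.0404, and with animal 2 left out it was -0.18.

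The second RPL35A probe set, MmugDNA.23506.1.S1_s_at, was brighter in the intact hearts and steady. Its signal was 6884, 5945, 6640 and 5829 in animals 11 to 14, 6658 in animal 2 and 6851 in animal 8, a log2 difference of 0.10 ± 0.14 (SE, adjusted p = 0.879). Animal 2 was thus unremarkable by this probe set. Both probe sets were Present on all 6 arrays and aligned to the same stretch of chromosome X on the plus strand (68274703 to 68275114 for the first, 91.05% identity, and 68274676 to 68275104 for the second, 97.47%) and to the same stretch of chromosome 16 on the minus strand (24244523 to 24244932, 91.5%, and 24244531 to 24245024, 97.24%), in build Mmul_051212. The second aligned to chromosomes 15 and 1 as well. Whether those places are exons, introns or pseudogenes is not given by the files. The 2 other RPL35A probe sets were Absent on all arrays, at signals of 13.0 to 22.6 and of 5.11 to 13.1 over the 6 hearts.

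How unusual the first RPL35A probe set was can be seen against the rest of the array. Between animals 2 and 8 it differed 9.36-fold, and among the 15151 probe sets Present on every array 8, itself included, differed between the hearts with block by as much (0.0528%). In animal 2 it was the probe set with rank 30 of the 52706 by signal, and on the other arrays its rank was between 600 and 1051. Among the other members Present on all arrays the widest difference between the hearts with block was 1.89 on the log2 scale (an RPL13 probe set), the next was 1.12, and the median over the 87 members was 0.18, against 0.28 over all probe sets Present on every array. The array of animal 2 was also that with the lowest trimmed mean and the highest GAPDH ratio, and their part in this signal was not tested.

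**Figure D3:**
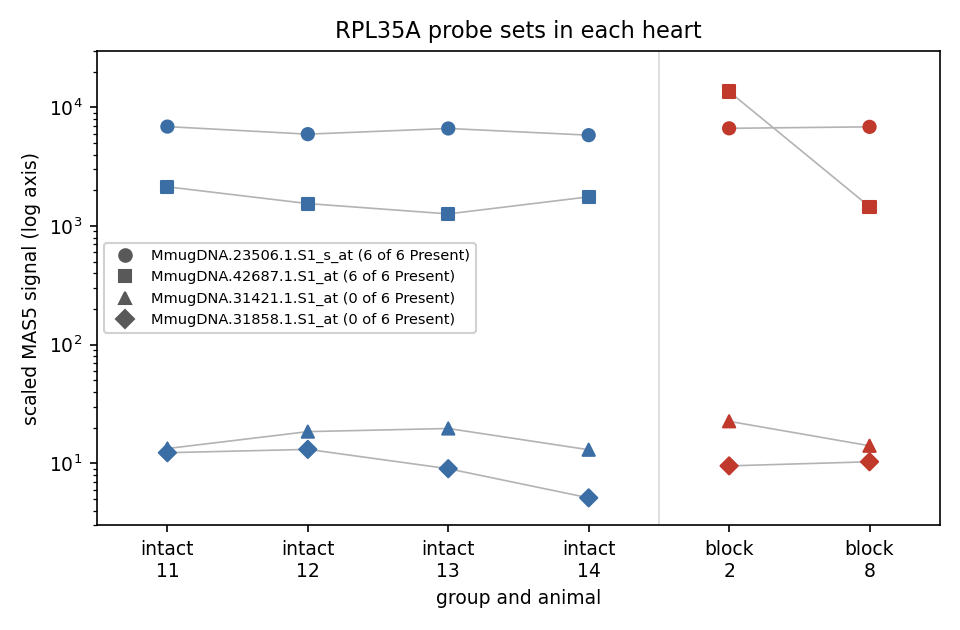
The scaled signal of the 4 RPL35A probe sets is plotted on a log axis for each of the 4 intact hearts (blue) and the 2 hearts with block (red), with a symbol for each probe set and its number of Present calls in the key. Animal 2 reads 13599 in MmugDNA.42687.1.S1_at against 1265 to 2139 in the intact hearts, and 6658 in MmugDNA.23506.1.S1_s_at against 5829 to 6884.

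Groups that did not overlap were found for 9 of the 102 tested members. Both hearts with block were below all intact hearts in 8 (7.84%, against 9.48% of all probe sets tested) and above them in 1 (0.980%, against 8.61%). The first share was near that of the array and the second under it. The counts depended on which intact heart was left out, and the shares of all probe sets rose each time. Those above numbered 12 (12.0%, against 12.5%) without animal 11 and 1 (0.990%, against 12.0%) without animal 12. They numbered 5 (4.90%, against 11.3%) without animal 13 and 2 (1.96%, against 11.3%) without animal 14. Those below, in the same order, numbered 10 (10.0%, against 13.7%), 19 (18.8%, against 13.1%), 10 (9.80%, against 12.3%) and 9 (8.82%, against 12.2%). When 1 heart with block is left out, the other alone has to clear the intact range, and the shares of all probe sets rise. Without animal 2 the counts were 6 above (5.94%, against 21.0%) and 13 below (12.9%, against 22.9%). Without animal 8 they were 29 above (29.0%, against 23.3%) and 21 below (21.0%, against 23.6%).

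RPL37, a zinc-binding protein of the large subunit, had the lowest unadjusted p of the members. In MmugDNA.35995.1.S1_x_at the intact hearts gave signals of 2077, 1650, 1892 and 2194, and the hearts with block of 1201 and 1202. The hearts with block read alike and lay below every intact heart. Its log2 difference was -0.69 ± 0.16 (SE, 95% interval from -1.06 to -0.33), or 0.62 times the intact level, at a limma p of 0.00204 and an adjusted p of 0.351. The probe set aligned to 13 places, so that the gene or copies behind the signal cannot be told apart. The 3 further RPL37 probe sets aligned to 1 place each, on chromosome 6, read at most 27.8 in any heart, and were Present on 1 to 3 arrays. MmugDNA.8209.1.S1_at read 12.3, 6.21, 8.10 and 14.9 in the intact hearts, 2.15 in animal 2 and 11.7 in animal 8, and MmugDNA.8207.1.S1_at 27.8, 21.7, 8.73 and 15.4, then 18.9 in animal 2 and 5.24 in animal 8. Animal 2 was the lower heart with block in the former and the higher in the latter. In the latter neither heart with block was Present and 2 intact hearts were, and its log2 difference had a 95% interval from -2.25 to 0.72 (adjusted p = 0.789).

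RPL5 and RPL11 are the large-subunit proteins that travel with the 5S ribosomal RNA and, when free, bind the p53 regulator MDM2. For RPL5, MmugDNA.406.1.S1_s_at read 3811, 3678, 3409 and 4460 in the intact hearts, 2393 in animal 2 and 2765 in animal 8. Both hearts with block were below all intact hearts, with a log2 difference of -0.57 ± 0.16 (SE, adjusted p = 0.419). MmugDNA.25868.1.S1_at of the same gene read 6953, 5993, 7351 and 6468 against 6624 and 7000, which overlapped, with a log2 difference of 0.03 ± 0.14 (SE, adjusted p = 0.968). They aligned to 11 and 16 places of the genome. The 4 remaining RPL5 probe sets were Present on no array. For RPL11 the 1 probe set read 13.1, 20.2, 18.3 and 29.2 in the intact hearts, where it was Present, and 8.23 and 8.51 with block, where it was Absent in both hearts. The groups did not overlap, but the signal with block was not above background, and its fitted 0.43 times the intact level (95% interval from 0.21 to 0.88, adjusted p = 0.534) is uncertain for that reason too.

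RPS26, a small-subunit protein at the mRNA exit, read 2777, 2737, 3627 and 3654 in the intact hearts and 2215 and 2561 with block. The groups did not overlap, although the gap to animals 11 and 12 was narrow, and the log2 difference was -0.41 ± 0.18 (SE, adjusted p = 0.603). RPL6 (4429, 4430, 4437 and 4658 against 4057 and 4080), RPS23, a protein of the decoding centre (5233, 5052, 5826 and 5697 against 4856 and 4615), and RPL24 (3550, 3133, 3746 and 3165 against 3005 and 3109) were the further bright probe sets below the intact range. Their log2 differences were -0.14, -0.20 and -0.15, with adjusted p of 0.739 to 0.812. The last, a dim RPL18 probe set, read 22.9, 24.8, 21.8 and 42.5 without a Present call in the intact hearts and 19.3 and 15.8 with Present calls in both hearts with block, so that its calls and its signal pointed opposite ways and no fold is given. The other RPL18 probe set, Present throughout, read 1629 to 1943 in the intact hearts and 1603 and 1927 with block.

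RPS4X, a small-subunit protein encoded on the X chromosome, was the gene with a probe set above the intact range. MmugDNA.32549.1.S1_x_at read 3947, 3365, 3652 and 3032 in the intact hearts, and 3988 and 3963 with block, just above animal 11. Its log2 difference was 0.19 ± 0.15 (SE, adjusted p = 0.776). In the second RPS4X probe set, which aligned to 12 places as did the first, the intact hearts read 2585, 1968, 2286 and 1674 and the hearts with block 2608 and 2423, with a log2 difference of 0.26 ± 0.19 (SE, adjusted p = 0.754).

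**Figure D4:**
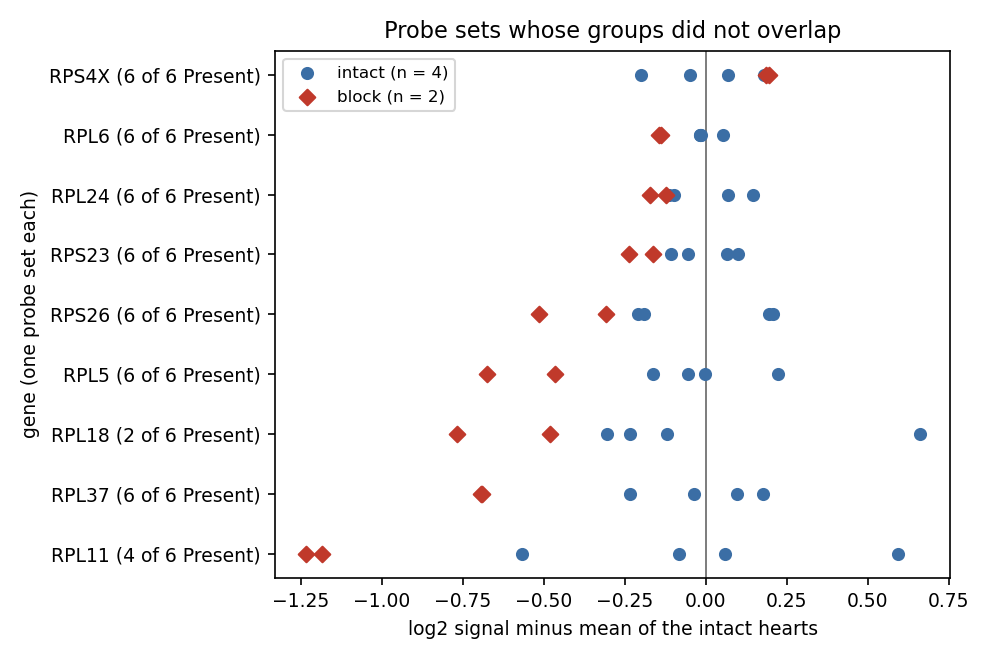
Log2 signals relative to the mean of the 4 intact hearts are shown for the 9 tested ribosomal protein probe sets in which the 2 hearts with block (red diamonds) lay outside the range of the intact hearts (blue circles). In RPL37 both hearts with block sit at -0.69, and in RPS4X they lie just beyond the highest intact heart.

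The lowest p among the members that were higher with block included, after RPL35A, those of RPS24, RPS3A, RPL34, RPS4X, RPL21 and RPS16. RPS24 read 8019, 6895, 7675 and 6342 in the intact hearts, 10246 in animal 2 and 7916 in animal 8. Animal 2 was above every intact heart and animal 8 was within them (log2 difference 0.32 ± 0.17 SE, adjusted p = 0.658). RPS3A, among the 5 brightest members, read 11430, 9572, 12098 and 9237 against 13826 in animal 2 and 11430 in animal 8 (0.26 ± 0.17 SE, adjusted p = 0.723). The log2 differences of RPL34, RPL21 and RPS16 were 0.21 to 0.28 with adjusted p of 0.734 to 0.761, and in each of these probe sets at least 1 heart with block lay in the intact range. Among those lower with block, RPL13A, which takes part in interferon-induced translational silencing, read 519.8, 614, 472 and 499 against 309.8 in animal 2 and 499.9 in animal 8 in its dimmer probe set (-0.41 ± 0.22 SE, adjusted p = 0.660) and differed by -0.10 in the other. A dim RPL7 probe set read 11.3 to 30.8 in the intact hearts and 8.49 and 11.8 with block (-0.98 ± 0.51 SE, adjusted p = 0.658).

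Among the proteins of the stalk, the flexible arm of the large subunit that recruits the translation factors, RPLP0 had 4 probe sets Present on all arrays. Their log2 differences were 0.13, -0.11, 0.08 and -0.01. In the brightest, RPLP0 read 6827, 5883, 7371 and 7031 in the intact hearts, 5927 in animal 2 and 9182 in animal 8, and animal 8 was high only there. RPLP1 read 7618, 6439, 6970 and 5868 against 7677 and 7266 (0.16 ± 0.15 SE), and RPLP2 2983, 2594, 3274 and 2597 against 2484 and 2808 (-0.11 ± 0.16 SE). In each of these probe sets at least 1 heart with block lay within the range of the intact hearts.

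RPS6, the small-subunit protein phosphorylated by S6 kinase downstream of mTORC1, read 5396, 4664, 5630 and 5401 in the intact hearts and 4851 and 5076 with block (log2 difference -0.08 ± 0.14 SE, adjusted p = 0.899). RPS27A, which is made as a fusion with ubiquitin, read 7190, 6023, 6312 and 6125 against 7363 and 7071 (0.17 ± 0.14 SE, adjusted p = 0.778). In RPS27A animal 8 lay within the intact range, below animal 11. RPL10A, studied for its uneven presence among ribosomes, read 1550, 1775, 1864 and 1694 against 1475 and 1862 in its bright probe set (-0.05 ± 0.16 SE). Its dim probe set, MmugDNA.36145.1.S1_at, read 19.5, 22.7, 2.66 and 21.2 against 51.1 in animal 2 and 14.2 in animal 8 (1.10 ± 0.92 SE, adjusted p = 0.785). The 4 further RPL10A probe sets were not tested.

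Some paralogs that replace a standard protein in some tissues were also measured. RPL3L takes the place of RPL3 in heart and skeletal muscle. Its probe set aligned to 1 place (chromosome 20, 1930934 to 1933480, minus strand, Mmul_051212) and read 988.5, 707, 909.5 and 1033 in the intact hearts, 559.7 in animal 2 and 781.5 in animal 8. Animal 2 was below every intact heart and animal 8 was above intact animal 12. The log2 difference was -0.44 ± 0.21 (SE, 95% interval from -0.92 to 0.03, adjusted p = 0.629). RPS27L, a p53 target, and RPL39L, known for its use in testis, were dim, with RPS27L at 21.3 to 43.3 in the intact hearts and 50.5 and 33.96 with block in the brighter of its probe sets, and RPL39L at 8.58 to 14.8 against 17.9 and 9.98. RPL36A, itself a standard protein of the large subunit, read 1144, 759, 1174 and 901 against 788 and 1041 in its brighter probe set (-0.11 ± 0.22 SE). The other RPL36A probe set differed by 0.35 ± 0.38 (SE).

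Probe sets of the same gene could be compared in 30 genes with at least 2 tested. The sign of the log2 difference was not the same for all tested probe sets in 13 of them, and the median spread between the lowest and highest was 0.22. In 21 genes at least 2 probe sets were Present on every array, with a median spread of 0.19, and the spread was over 0.5 in 3 of these, RPL35A (1.33), RPL5 (0.60) and RPL13 (0.58). RPS10 (1.31), RPL10A (1.15) and RPL18 (0.59) completed the widest spreads with a probe set that was not Present throughout. At the other end, the 2 probe sets of RPS16 gave 0.21 and 0.21, and those of RPS25, a small-subunit protein needed for some cap-independent initiation, gave -0.29 and -0.32.

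For RPL13, 3 probe sets that overlap on the plus strand of chromosome 20 between 87689442 and 87692104 (Mmul_051212, 1 place each) were Present on all arrays. MmugDNA.31034.1.S1_at read 759, 327, 322 and 714 in the intact hearts, 1227 in animal 2 and 331 in animal 8, high in animals 11, 14 and 2 and low in the other 3. MmugDNA.37060.1.S1_at read 764, 765, 896 and 764, then 511 in animal 2 and 945 in animal 8, so that animals 2 and 8 stood in the opposite order. MmugDNA.42536.1.S1_s_at read 2143, 1546, 2053 and 1176 against 1474 and 2339. For RPS10, a small-subunit protein at the mRNA entry, MmugDNA.957.1.S1_x_at read 911, 793, 239 and 771 in the intact hearts and 341 and 155 with block (-1.39 ± 0.53 SE, adjusted p = 0.544), and intact animal 13 was as low as the hearts with block. MmugDNA.26668.1.S1_s_at read 386, 247, 624 and 539.9 against 462.5 and 348, which overlapped, with animal 13 the highest.

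**Figure D5:**
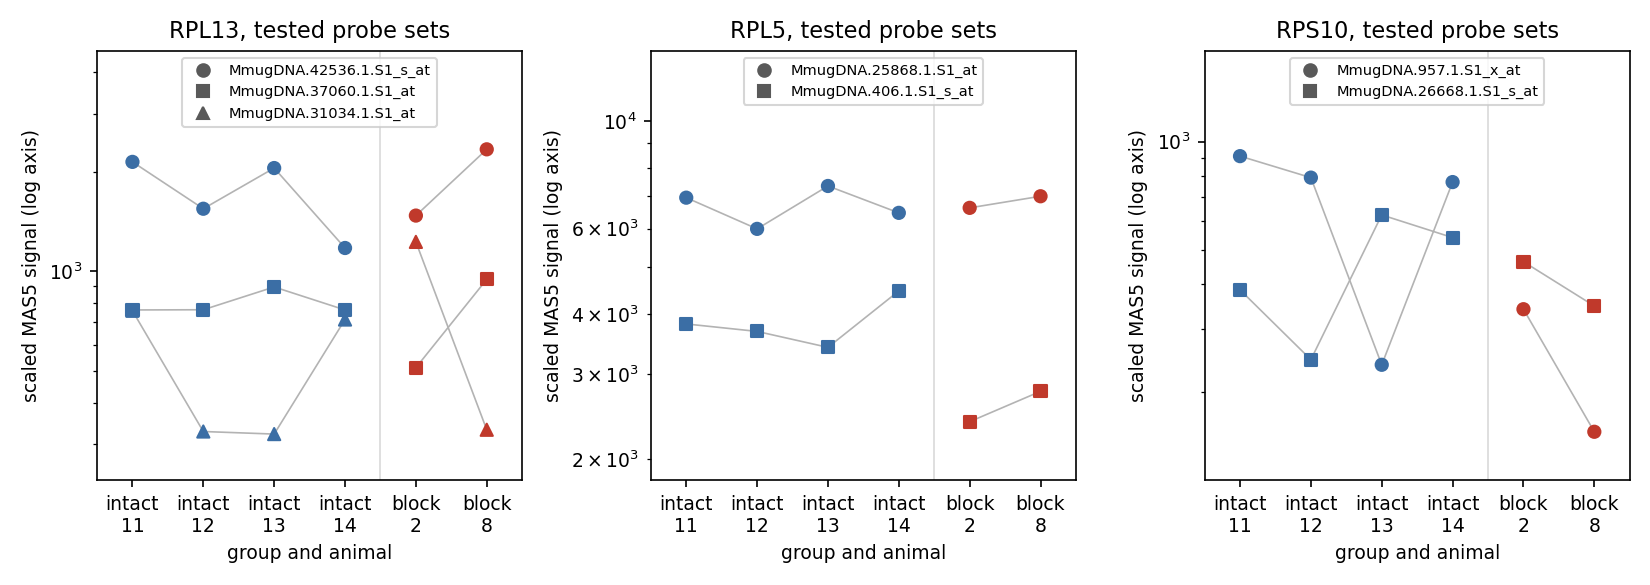
Scaled signals of the tested probe sets of RPL13, RPL5 and RPS10 are plotted on log axes for each intact heart (blue) and each heart with block (red), with a symbol for each probe set. Probe sets of the same gene order the hearts differently, as in animal 2, which reads 1227 in an RPL13 probe set and 511 in another.

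The brightest members in the intact hearts were 2 probe sets of RPL23A, which lies at the exit of the peptide tunnel, with RPS3A, RPL21 and RPL9. The brighter RPL23A probe set read 13094, 10500, 12735 and 10547 in the intact hearts, 15090 in animal 2 and 11476 in animal 8, and the other 9661, 8564, 10087 and 9083 against 8981 and 8976. Their log2 differences were 0.17 and -0.06. RPL21 differed by 0.14 and RPL9 by 0.04. The dimmest tested were probe sets of RPL37, RPL37A, RPL39L, RPS23 and RPL10A at intact means of 10.4 to 16.5. Brighter probe sets named for RPL37A, RPS23 and RPL10A had intact means of 6918, 5452 and 1720 and aligned to 5, 5 and 3 places.

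The other parts of the translation machinery were taken from gene lists, with the brightest tested probe set for each gene, and not every listed gene was found by its symbol on this array. Over all probe sets tested, 3.62% were higher and 4.62% lower at an unadjusted limma p under 0.05. Of 22 initiation factor genes tested, 0 passed an adjusted p of 0.05 in limma. At an unadjusted p under 0.05, 3 were higher and 0 lower, and the median log2 difference was 0.06. The 3 were EIF5 (0.50), EIF4E (0.51), the cap-binding factor, and EIF4G2 (0.33), with adjusted p of 0.544 to 0.580. EIF4G2 read 4386 ± 152 (SD, n = 4) in the intact hearts, and 5633 and 5384 with block. Of 13 elongation and ribosome-associated genes, 0 passed and 1 was higher at an unadjusted p under 0.05, EEF1A1, the factor that brings aminoacyl-tRNA (log2 difference 0.37, adjusted p = 0.598). The median was 0.11. Of 19 ribosome biogenesis genes 0 passed and 0 were under 0.05 unadjusted, with a median of 0.08. The nucleolar proteins nucleolin (NCL) and fibrillarin (FBL) differed by 0.07 and 0.17.

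Of 10 genes that control the translation of ribosomal protein mRNAs 0 passed. At an unadjusted p under 0.05, 2 were higher and 1 lower, against 3.62% and 4.62% of all probe sets tested. SESN1, an inhibitor of mTORC1, read 267 ± 43.9 (SD, n = 4) in the intact hearts and 380.4 and 386 with block (log2 difference 0.54, adjusted p = 0.536), and RPS6KB1, the S6 kinase, 221 ± 32.9 against 348 and 268 (0.48, adjusted p = 0.606). DDIT4, also an inhibitor of mTORC1, read 217 ± 44.0 against 124 and 173 (-0.55, adjusted p = 0.593). Of 5 genes for ribosomal protein fusions and further paralogs 0 passed, and 0 were under 0.05 unadjusted. FAU, which carries a small-subunit protein fused to a ubiquitin-like protein, differed by -0.16.

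The mitochondrial ribosome, a separate particle with its own proteins, gave 73 tested genes, of which 0 passed an adjusted p of 0.05. At an unadjusted p under 0.05, 0 were higher and 5 lower, against 3.62% and 4.62% of all probe sets tested. Their median log2 difference was -0.11, with 24 higher and 49 lower, against 34 higher and 32 lower among the 66 cytosolic genes and a median of 0.03. By heart, animal 2 had a mitochondrial ribosomal median of 0.05 and animal 8 of -0.21, where the cytosolic medians were 0.01 and 0.02. Both hearts with block were below all intact hearts in 9 of the 73 and above them in 0, against 9.48% and 8.61% of all probe sets tested. The difference between the lists was not tested.

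Markers of the cells in the wall were read beside these values. The 14 cardiomyocyte markers had a median log2 difference of 0.18, with 12 higher and 2 lower, and their summed signal was 104680 to 118859 in the intact hearts, 143655 in animal 2 and 115322 in animal 8. Of 9 macrophage markers 9 were higher (median 0.57) and 0 passed an adjusted p of 0.05 in limma. At an unadjusted p under 0.05, 1 was higher, against 3.62% of all probe sets tested. The summed signals of these markers were 648 to 1030 in the intact hearts, 850 in animal 2 and 1592 in animal 8. Of 7 erythroid markers tested 6 were higher and 1 lower (median 0.32), 0 passed, and 2 were Present on every array. The erythroid markers summed to 5722 to 16277 in the intact hearts, 22554 in animal 2 and 16127 in animal 8. Fibroblast markers (9 tested) had a median of -0.01 and endothelial markers (10 tested) of -0.12, and smooth muscle (8), lymphocyte (4) and adipocyte markers (6) of 0.11, -0.25 and -0.22. The hearts with block went opposite ways in some of these. The medians in animals 2 and 8 were -0.29 and 0.23 for fibroblast and 0.25 and -0.70 for lymphocyte markers. They were -0.10 and 0.15 for smooth muscle, -0.21 and -0.02 for endothelial, and -0.12 and -0.30 for adipocyte markers. The part of these cells in the ribosomal protein values was not tested.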

How the data were processed

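Left ventricular RNA (100 ng of total RNA from at least 50 mg of tissue) of 6 monkeys was hybridised by the authors to Affymetrix Rhesus Macaque Genome Arrays after amplification with a 3′ in vitro transcription kit. The probes were designed on rhesus sequence. The deposited values are MAS5 signal intensity (linear), detection calls, detection p-values per probe set, and normalized log2 values that the authors made by subtracting first the median of the array and then that of the probe set in the intact hearts. A second deposited table holds the same intensities with 1 row more. The workbook's 6 columns that count probe pairs were left aside.

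Control probe sets (158) were left out after scaling. Signals were scaled to a common 2% trimmed mean and put on the log2 scale. Probe sets Present on at least 2 of 6 arrays (22577) were tested with limma 3.58.1 in R 4.3.3 (lmFit, eBayes with trend, 2-sided, Benjamini-Hochberg over all of them, threshold 0.05), with 4 intact hearts against 2. An adjusted p given without a tool is limma's. Intervals are 95% limma intervals. Folds are taken between means of log2 signals. Each animal is 1 sample, and the number of arrays limits the precision. Tables were made with pandas 2.3.3 in Python 3.11.15 and plots with matplotlib 3.10.9. The test was checked on simulated data, 200 probe sets being changed by each size (0, 0, 6 and 6 false calls at 1.5-, 2-, 4- and 8-fold).

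The members, gene lists and rule for named genes were chosen with earlier results of these data known. The rule names RPL35A, paralogs, stalk, phosphorylated and fusion proteins, the 8 tested probe sets with the lowest p in each direction, the 5 genes with the widest spread between probe sets, the 5 brightest and 5 dimmest tested probe sets and the 5 with the widest difference between the hearts with block. It gave 46 probe sets of 31 genes, and the results of some genes are not reported here. Probe sets naming a ribosomal protein together with another gene (7) were left out and added back as an alternative chosen after seeing the data, as were the leaving out of RPL35A and of members not Present on all arrays. Further alternatives were other scalings, the authors' normalized columns, an offset of 32, other filters, other limma options, other summaries per gene and each animal left out.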

Additional observations from a re-analysis of the deposited data

Results flagged for a closer look

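In 3 of the 46 named probe sets 1 of the 4 intact hearts stood apart from the other 3 by a gap wider, relative to the group's log2 range, than Dixon's 95% critical value for 4 samples. Chance flags about 1 group in 20.

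In the dim RPL10A probe set MmugDNA.36145.1.S1_at intact animal 13 read 2.66 against 19.5, 22.7 and 21.2 in the other intact hearts. In the RPS10 probe set MmugDNA.957.1.S1_x_at animal 13 read 239 against 911, 793 and 771. In the RPL21 probe set MmugDNA.25790.1.S1_s_at animal 11 read 7851 against 6238, 6161 and 6019, above both hearts with block (7594 and 7524). Without animal 13 the log2 difference of the RPS10 probe set was -1.84 and that of the RPL10A probe set 0.35, and without animal 11 that of the RPL21 probe set was 0.30.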

How the results depend on the processing

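No paired analysis was possible because the animals' numbers are not shared between the groups. The number of members past an adjusted p of 0.05 stayed at 0 lower in every setting tried and at 0 higher in all but 1, with 0 to 1 higher over the fits that left out an animal, where the 1 was RPL35A without animal 8 (1 heart with block). The median log2 difference of the members, 0.03, was -0.04 with quantile normalization (0.00 over all tested probe sets), -0.02 without animal 12 and -0.00 without animal 8, so its sign is not settled. In the deposited signals without scaling it was -0.34, with -0.59 in animal 2 and -0.14 in animal 8, and all tested probe sets then had a median of -0.37. Members with both hearts with block below all intact hearts numbered 13 with quantile normalization (12.7%, against 9.29% of all probe sets tested), 13 of 152 without the filter on detection (8.55%, against 7.98%) and 39 without scaling (38.2%, against 27.8%), and 9 to 21 when an animal was left out (8.82% to 21.0%, against 12.2% to 23.6%). Those above numbered 0 by 75th percentile scaling (against 9.49%), 3 without the filter (1.97%, against 8.04%) and 0 without scaling (against 1.07%), and 1 to 29 when an animal was left out (0.990% to 29.0%, against 11.3% to 23.3%). The cause of these changes was not tested. Of 673 recomputed differences of the named probe sets, 52 had the other sign (22 of them without scaling), none of them called, and 1 changed its call (RPL35A, above). With the probe sets naming several genes the median was 0.04, and without RPL35A 0.03. Signal over background limits the 15 tested members not Present on all arrays, whose median SD of log2 signals over the intact hearts was 0.57, against 0.18 for the others.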

Other observations

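Among the 7 probe sets left out because they name a ribosomal protein with another gene, 4 were tested. That naming RPS10 with 2 further loci read 5511, 4453, 5570 and 4236 in intact animals 11 to 14, 5764 in animal 2 and 4960 in animal 8, a log2 difference of 0.12 (adjusted p = 0.875), where the RPS10 members differed by -1.39 and -0.08. That naming RPS15A with another gene read 4919, 3916, 5464 and 4215 against 5173 and 4574, and that naming RPL24 with SLC36A2 4204, 3609, 5145 and 4709 against 3698 and 4262, both overlapping. The fourth, naming RPL7 with a further locus, read at most 7.68 in any heart.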
